A study of Mus musculus with 6 samples.

Results

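The semaphorins, plexins and neuropilins are a family of guidance signals and their receptors, described here in the aged mouse cerebellum with and without Tmem106b. Members were the protein-coding genes of the count table with a semaphorin symbol of classes 3 to 7, a plexin symbol or a neuropilin symbol. The rule found 31 genes among 43346 rows, of which 22032 are protein-coding: 20 semaphorins, 9 plexins and 2 neuropilins. All 31 passed the filter on low counts and were tested. RNA came from the cerebellum of mice aged 15 months, 3 wild-type (WT, Tmem106b+/+) and 3 homozygous for a loss of Tmem106b (KO, Tmem106b-/-), with 1 female and 2 males in each group and 1 library per mouse. Replicate 1 of each group is the female. The labels give neither how the allele was made nor the strain, and they name no other allele and no treatment. TMEM106B spans the membrane of lysosomes and late endosomes, and the title of the study names Purkinje cell death and motor deficits as the outcome of its loss.

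Semaphorins are secreted or membrane-bound proteins that share an extracellular sema domain and steer axons, dendrites, migrating cells and vessels. Plexins are their receptors and act through an intracellular domain that controls small GTPases and the cytoskeleton, and most secreted class 3 semaphorins bind plexins of the A type through a neuropilin as co-receptor. In the cerebellum, Sema3A and Sema7A made by Purkinje cells act back on climbing fibres during the pruning of their synapses, the first through plexin A4 and the second through plexin C1 and integrin β1. The cell bodies of climbing fibres lie in the brainstem, outside the tissue sequenced.

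Library totals ran from 25245778 to 31135185 counts, and levels are given as CPM (counts relative to library size, after scaling of libraries) or, between genes, as CPM per kb of gene model. Tmem106b, the check of the labels, averaged 245 ± 19.4 in WT and 66.8 ± 3.64 in KO in CPM (SD, n = 3 each; log2 fold change -1.88, standard error (SE) 0.08, edgeR adjusted p = 1.37e-04). Markers that define the tissue were present, with the granule cell gene Gabra6 at 787 ± 33.0 CPM and the Purkinje cell gene Calb1 at 1207 ± 45.8 CPM in WT (SD, n = 3 each). The 7 anchor genes of cell types did not pass, with log2 fold changes of 0.11 for Gabra6, -0.43 for Calb1, -0.12 for Mbp of oligodendrocytes, 0.42 for Cx3cr1 of microglia, -0.23 for Cldn5 of endothelium, 0.23 for Aqp4 of astrocytes and 1.11 for Ttr of the choroid plexus (edgeR adjusted p = 0.134 to 0.881). The edgeR quasi-likelihood test with Benjamini-Hochberg adjustment called 48 of 16934 genes at the threshold of 0.05, which is 0.283%. The lower ones were 25, or 0.148%, and the higher ones 23, or 0.136%. Among the members 1 passed, Sema3a, which fell, and 30 did not, with 21 log2 fold changes below 0 and 10 above. The median over members was -0.08, with the median of all genes tested at 0.00. The labels do not say that libraries were prepared in batches, and KO replicate 1 stands apart in a way that touches many members, as described after the receptors.

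**Figure D1:**
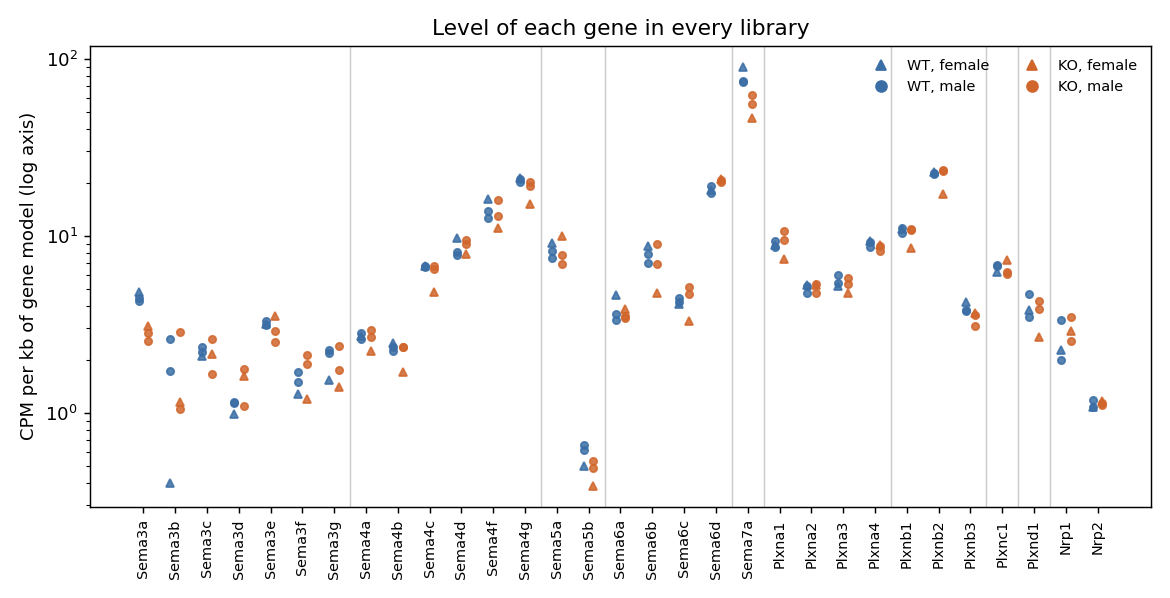
Level of each of the 31 genes in every library, as CPM per kb of gene model on a log axis, with WT in blue, KO in orange, triangles for females and circles for males, and vertical lines between classes. Sema7a lies highest and Sema5b lowest, and the KO points of Sema3a and Sema7a all lie below the WT points.

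Sema3a, the secreted semaphorin known for repelling axons and for accumulating in the perineuronal nets of adult neurons, was lower in every KO mouse. Its level was 31.0, 27.7 and 28.8 CPM in WT replicates 1 to 3 and 19.9, 16.4 and 18.4 CPM in KO replicates 1 to 3. The groups did not overlap, and the gap between them was wider than the spread within either. The KO mean was 62.6% of the WT mean, and the log2 fold change was -0.68 with an SE of 0.09 and a 95% interval of -0.89 to -0.47 (edgeR adjusted p = 0.0359). The fold change lay between -0.74 and -0.62 over 16 alternative fits. These fits are not independent, and under the sex term leaving out either female in effect compares the males only. Sema3a passed in 13 of the 16 fits, and lost the call without WT replicate 2 (edgeR adjusted p = 0.176), WT replicate 3 (0.310) or KO replicate 2 (0.200). Its log2 fold change in these fits was -0.69, -0.66 and -0.62. Over all genes they called 1, 1 and 16, against 48 with all libraries. Sema3a (ENSMUSG00000028883) lies on the plus strand of chromosome 5 at 13396784 to 13602565 of mm10, and no other gene of the table overlaps it.

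Sema7a, which encodes a semaphorin held in the membrane by a lipid anchor, had the highest level of all members per length, 79.9 ± 8.90 CPM per kb in WT (SD, n = 3). Its levels were 297, 248 and 244 CPM in WT replicates 1 to 3 and 153, 182 and 205 CPM in KO replicates 1 to 3. Summed over 20 semaphorins, the level was 195 ± 12.8 CPM per kb in WT and 165 ± 15.9 in KO (SD, n = 3 each), so Sema7a held much of it. The Sema7a groups did not overlap either, and the KO female was the lowest and the WT female the highest library. The log2 fold change was -0.55 (SE 0.12, 95% interval -0.83 to -0.27), and it did not pass over all genes tested (edgeR adjusted p = 0.171). It passed in DESeq2 (-0.55, adjusted p = 0.00148), without KO replicate 3 (-0.63, edgeR adjusted p = 0.0150) and with GC content and length trends of the libraries removed (-0.46, SE 0.06, edgeR adjusted p = 0.00327). DESeq2 called 1.03% of the genes it tested lower in KO, and the fit with offsets 0.986%. The fit without KO replicate 3 called 89 genes lower in KO, against 25 with all libraries. It leaves out the KO library with the highest Sema7a level. Without KO replicate 1 the log2 fold change was -0.36 (edgeR adjusted p = 0.0525), and without WT replicate 1 it was -0.35 (0.0871). Each of these fits leaves out 1 female, and under the sex term both in effect compare the males only. The fit of the males only gave -0.36 (edgeR adjusted p = 0.0579). Sema7a (ENSMUSG00000038264) lies on the plus strand of chromosome 9 at 57940113 to 57962864, and no other gene of the table overlaps it.

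The 250 bases before the RefSeq start of these 2 genes (GRCm38.p6, plus strand) are shown, with CG dinucleotides in capitals. The 2 genes were taken because they had the lowest unadjusted edgeR p among the members. The Sema3a window is chr5:13396534-13396783 and the Sema7a window chr9:57939862-57940111.
Sema3a: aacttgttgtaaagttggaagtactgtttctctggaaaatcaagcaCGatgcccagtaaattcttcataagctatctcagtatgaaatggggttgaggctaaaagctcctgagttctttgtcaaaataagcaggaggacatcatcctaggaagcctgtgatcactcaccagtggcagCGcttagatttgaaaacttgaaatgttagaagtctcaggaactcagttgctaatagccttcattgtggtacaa
Sema7a: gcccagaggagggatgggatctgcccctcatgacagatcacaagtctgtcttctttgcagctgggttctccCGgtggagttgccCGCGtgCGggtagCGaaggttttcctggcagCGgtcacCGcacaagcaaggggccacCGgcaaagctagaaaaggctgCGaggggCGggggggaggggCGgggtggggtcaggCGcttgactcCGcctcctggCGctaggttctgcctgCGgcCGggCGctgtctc
The windows are unlike in composition, with 2 CG dinucleotides and 40.8% GC before Sema3a against 17 and 66.4% before Sema7a, where the median of 32851 promoter windows of this length is 6 CG. The core CCCNNGGG, a palindrome that reads the same on both strands and is bound by EBF factors, some of which Purkinje cells express, was in neither window. It was in 11.8% of all windows and in 7 of the 37 windows found for 26 of the members.

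Purkinje cell markers were lower in the same KO libraries. Of 14 markers, 8 fell over all genes tested, among them Itpr1, Arhgef33, Car8 and Rgs8, and 14 of 14 log2 fold changes lay below 0, with a median of -0.58. Itpr1, the inositol trisphosphate receptor of Purkinje cells, was at -0.65 (SE 0.07, edgeR adjusted p = 0.0134), Arhgef33 at -0.67 (SE 0.07, 0.0175), Car8, which binds that receptor, at -0.62 (SE 0.07, 0.0214) and Rgs8, which dampens signals of G proteins, at -0.65 (SE 0.08, 0.0285). These markers were chosen with earlier results of these data known. Their summed level was 11070 to 12030 CPM in WT and 7179 to 8171 CPM in KO, with no overlap. Set against this sum, Sema3a gave 2.52 ± 0.0533 CPM per 1000 CPM of the markers in WT and 2.34 ± 0.0845 in KO (SD, n = 3 each), which is 93.1% of the WT ratio. The highest KO library, at 2.44, stayed just below the lowest WT library, at 2.47, so the Sema3a ratios did not overlap between the groups. Whether this small gap differs from 0 was not tested. For Sema7a the ratio was 22.7 ± 1.87 in WT and 23.3 ± 3.90 in KO (SD, n = 3 each), or 103% of WT. This KO mean averages unlike values, 18.8 in KO replicate 1 against 25.4 and 25.6 in KO replicates 2 and 3. WT replicates 1 to 3 were at 24.7, 22.4 and 21.0, so KO replicate 1 lay below every WT library and the KO males above. In RNA from whole tissue, fewer cells of a type and less RNA per cell cannot be told apart.

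**Figure D2:**
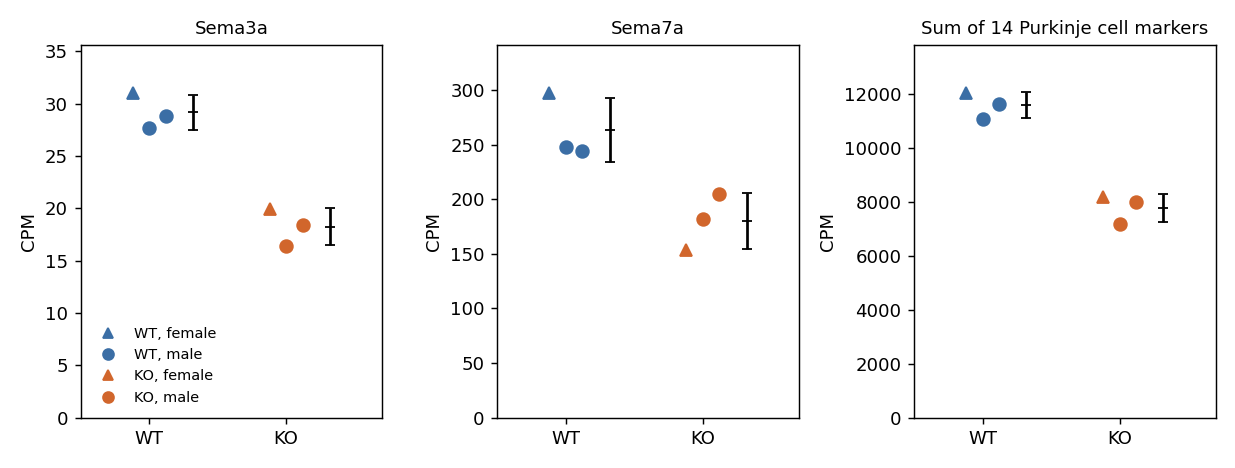
CPM of Sema3a, Sema7a and the sum of 14 Purkinje cell markers in each library, with bars for the mean and SD of 3 mice per group. In each panel all 3 KO mice lie below all 3 WT mice, and the KO female is the lowest library for Sema7a but the highest KO library for Sema3a.

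The other class 3 genes, which encode the remaining secreted ligands, did not pass the test. Sema3d, a ligand known from the development of heart and vessels, was at 6.39, 7.38 and 7.55 CPM in WT and at 10.5, 11.5 and 7.17 CPM in KO. The third KO mouse lay within the WT range, and the log2 fold change was 0.45 (SE 0.19, 95% interval 0.02 to 0.89, edgeR adjusted p = 0.537). Sema3e, which binds plexin D1 without a neuropilin, was at -0.12 (95% interval -0.39 to 0.14), and Sema3c, which acts through both neuropilins, at -0.05 (-0.43 to 0.32). Sema3f, the ligand of neuropilin 2, was at 0.20 (-0.13 to 0.53) and Sema3g, a semaphorin of arterial endothelium, at -0.12 (-0.45 to 0.22). Summed per length, class 3 without Sema3a gave 11.6 ± 1.93 CPM per kb in WT and 11.9 ± 1.65 in KO (SD, n = 3 each). Sema3a, Sema3c, Sema3d and Sema3e lie within 5.35 Mb of chromosome 5, and Sema3b and Sema3f lie 0.0723 Mb apart on chromosome 9. The log2 fold changes of Sema3c, Sema3d and Sema3e lay on both sides of 0 and none passed. The part of chromosome position in these values was not tested.

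Sema3b, a secreted ligand of neuropilins, varied most among libraries. It was at 1.93, 12.4 and 8.22 CPM in WT replicates 1 to 3 and at 5.51, 13.7 and 5.03 CPM in KO replicates 1 to 3, a log2 fold change of 0.31 (95% interval -0.84 to 1.46, edgeR adjusted p = 0.881). The WT female was far below the other 5 libraries. The summed choroid plexus markers, 7 genes led by the thyroxine carrier Ttr, were at 83.6, 4698 and 3107 CPM in WT and at 1635, 5056 and 1620 CPM in KO, and the 6 libraries stood in the same order for both. The ratio of Sema3b to this sum was 2.64 to 3.37 CPM per 1000 CPM in 5 libraries and 23.1 in WT replicate 1. With the choroid plexus score of each library in the model in place of sex, the log2 fold change of Sema3b was -0.13. The pairing was chosen after the values were seen.

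**Figure D3:**
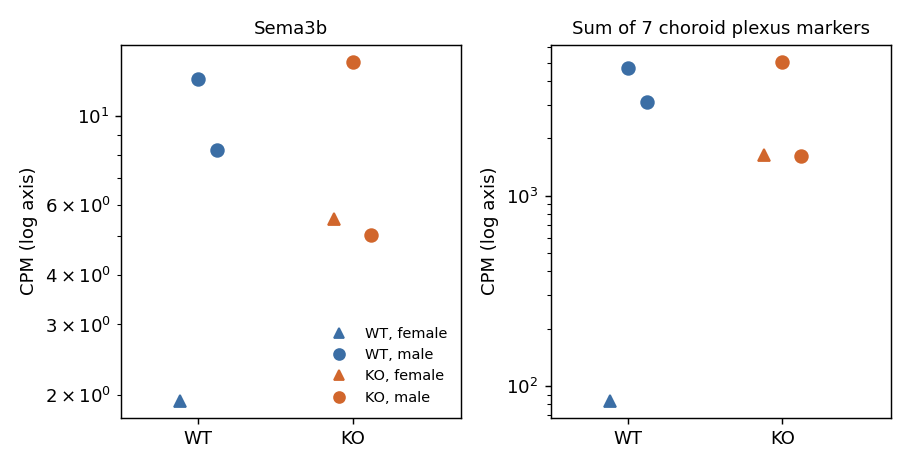
CPM of Sema3b and the summed CPM of 7 choroid plexus markers in each library, on log axes. WT replicate 1, the WT female, is lowest in both panels, at 1.93 and 83.6 CPM, and KO replicate 2 is highest, at 13.7 and 5056 CPM.

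Class 4 genes encode membrane semaphorins that mostly signal through plexins of the B type. Sema4g, the third most abundant member per length, was at 103, 98.4 and 102 CPM in WT and 74.1, 92.6 and 97.9 CPM in KO. The groups did not overlap, by a narrow gap in the males, and the log2 fold change was -0.21 (SE 0.09, 95% interval -0.42 to 0.01, edgeR adjusted p = 0.577). Without KO replicate 1 it was -0.08. Sema4c, a ligand of plexin B2, was at -0.18 (95% interval -0.43 to 0.08), Sema4b at -0.16 (-0.48 to 0.16), Sema4f at -0.09 (-0.43 to 0.25) and Sema4a at -0.06 (-0.33 to 0.20). Sema4d, the ligand of plexin B1 that oligodendrocytes and lymphocytes make, was at 0.05 (-0.21 to 0.30). It gave 11.4 ± 1.2 CPM per 1000 CPM of 8 oligodendrocyte markers in WT and 12.2 ± 1.09 in KO (SD, n = 3 each).

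Class 5 semaphorins carry thrombospondin repeats and bind plexins A1 and A3. Sema5a averaged 89.5 ± 8.92 in WT and 89.1 ± 16.6 in KO in CPM (SD, n = 3 each; log2 fold change -0.02, 95% interval -0.21 to 0.18). Sema5b had the lowest level per length of all members, 0.589 ± 0.0820 CPM per kb in WT (SD, n = 3), and a log2 fold change of -0.32 (-0.67 to 0.02). It is the member with an overlapping gene of over 10% of its own counts, the processed pseudogene Gm5963 (31.3 against 108.7 mean counts), so its reads may be shared.

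Class 6 genes encode membrane ligands of the A plexins. Sema6d, which binds plexin A1, was at 193, 203 and 185 CPM in WT and 222, 220 and 212 CPM in KO. Every KO library was above every WT library, but the difference was small, with a log2 fold change of 0.17 (SE 0.06, 95% interval 0.02 to 0.32), and it did not pass over all genes tested (edgeR adjusted p = 0.478). It passed in 0 of 16 alternatives, with log2 fold changes of 0.14 to 0.21. Of 10 granule cell markers, 8 also had log2 fold changes above 0, none of which passed, and the ratio of Sema6d to their sum overlapped between the groups, at 29.8 to 30.5 CPM per 1000 CPM in WT and 30.2 to 34.1 in KO. Sema6a, which with plexin A2 guides the migration of granule cells, was at -0.09 (95% interval -0.30 to 0.12) and Sema6c at 0.02 (-0.25 to 0.29). Sema6b was at -0.23 (-0.69 to 0.23) with both sexes included and at 0.07 in the males alone. Groups that did not overlap were seen in 5 of the 31 members, 4 lower in KO and 1 higher, against 14.1% of all genes tested (6.35% lower, 7.77% higher). These were Sema3a, Sema7a, Sema4g, Plxnb3 and Sema6d.

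None of the 9 plexins and 2 neuropilins passed in edgeR, DESeq2 or limma-voom. Of these receptors 0 had an unadjusted edgeR p under 0.05, against 8.96% of all genes tested, and for so few genes this count is near that share. Of the 20 semaphorins, 4 had an unadjusted edgeR p under 0.05. Plexin A4, the receptor for Sema3A on climbing fibres, was at 120, 119 and 112 CPM in WT and 115, 113 and 105 CPM in KO, with a log2 fold change of -0.07 and a 95% interval of -0.23 to 0.08. The interval of Plxna2, the receptor of Sema6a, was -0.16 to 0.19 around 0.01, that of Plxna1 -0.22 to 0.26 around 0.02, and that of Plxna3 -0.27 to 0.11 around -0.08. Plxnc1, the plexin that Sema7A binds, averaged 51.8 ± 2.20 in WT and 51.2 ± 5.16 in KO in CPM (SD, n = 3 each; -0.02, 95% interval -0.23 to 0.19). Over all 9 plexins the intervals lay between -0.51, the lower end for Plxnd1, and 0.26, the upper end for Plxna1, on the log2 scale. Sema3a stood at -0.68 with an interval of -0.89 to -0.47, which overlaps that of Plxnd1.

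Plxnb2, the most abundant plexin per length (22.6 ± 0.247 CPM per kb in WT; SD, n = 3) and a receptor of granule cell precursors, was at -0.09 (95% interval -0.31 to 0.13). Plxnb1 was at -0.11 (-0.31 to 0.10). Plxnb3, a plexin of oligodendrocytes, was at 27.6, 24.7 and 24.4 CPM in WT and 23.6, 23.3 and 20.2 CPM in KO, with groups that did not overlap and a log2 fold change of -0.19 (-0.40 to 0.02, edgeR adjusted p = 0.622). The summed oligodendrocyte markers were at 3964 to 5518 CPM in WT and 4606 to 4659 CPM in KO. Plxnb3 gave 5.34 ± 0.773 CPM per 1000 CPM of these markers in WT and 4.83 ± 0.43 in KO (SD, n = 3 each), with groups that overlapped. The part of these markers in the Plxnb3 values was not tested.

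Plxnd1 and Nrp1, receptors with prominent roles in vessels, were at -0.16 (95% interval -0.51 to 0.18) and 0.23 (-0.23 to 0.70). Nrp1, the co-receptor for Sema3A, was at 13.3, 19.8 and 11.8 CPM in WT and 17.1, 20.5 and 15.1 CPM in KO, and its WT libraries spread more widely than its KO libraries. WT replicate 2 was also the WT library with the most endothelial marker RNA (9 markers, 330 CPM against 283 and 285 CPM), and KO ranged from 303 to 329 CPM. The part of the vessels in these values was not tested. Nrp2 averaged 13.2 ± 0.70 in WT and 13.4 ± 0.36 in KO in CPM (SD, n = 3 each; 0.02, 95% interval -0.22 to 0.26).

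**Figure D4:**
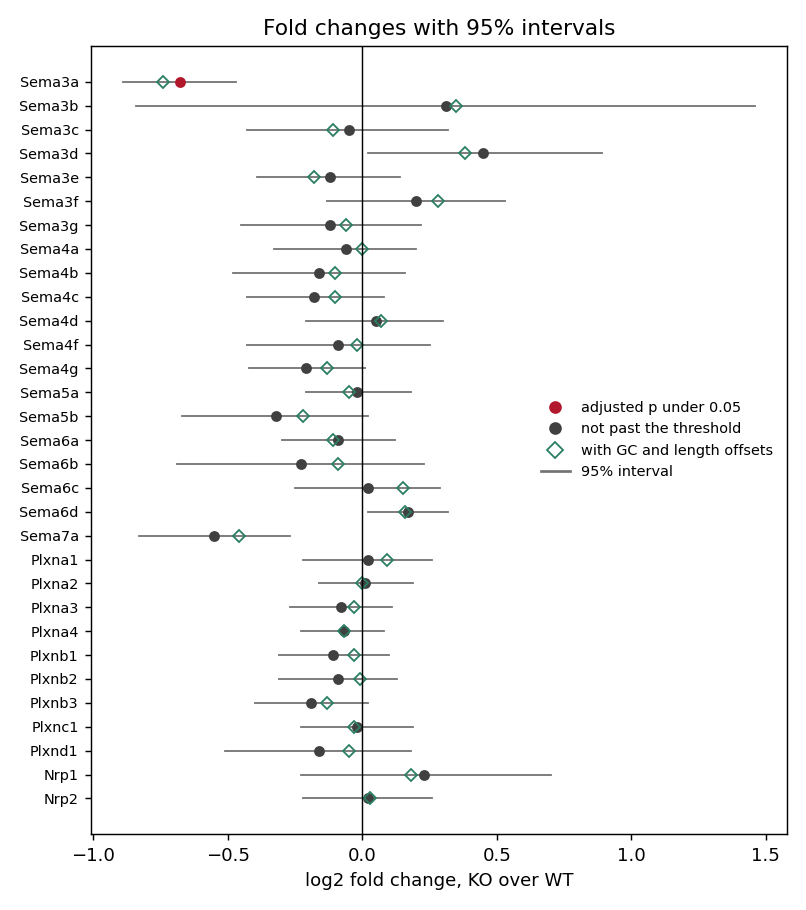
Log2 fold change of each gene, KO over WT, with its 95% interval (circles and lines), and the value with GC content and length trends removed (open diamonds). The interval of Sema3a, from -0.89 to -0.47, and that of Sema7a, from -0.83 to -0.27, lie below 0, and all plexin and neuropilin intervals include 0.

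Many members differed between KO replicate 1 and the other KO mice according to the base composition of their transcripts. Members above 53% GC, a limit chosen after seeing the data, were 19, among them all class 4 genes, all B plexins and Sema7a. In KO replicate 1, 19 of these 19 lay below their WT mean, with a median log2 difference of -0.37, while in KO replicates 2 and 3 the numbers were 10 and 8 and the medians -0.01 and 0.02. The 12 members up to 53% GC, among them Sema3a, Sema3c, Sema3d and Sema3e at 39.2% to 42.7%, had medians of 0.10, -0.01 and -0.12 in KO replicates 1 to 3. All genes tested showed the same split in KO replicate 1, with medians of -0.26 above and 0.09 below the limit, and 4447 of 5429 genes above it lay below their WT mean. Other libraries moved less and not all the same way, the median above the limit being 0.07 in WT replicate 1, the WT female, 0.08 in KO replicate 3 and between -0.05 and -0.02 in the rest. KO replicate 1 is the KO female and the library with the fewest counts, so sex, depth and this trend cannot be told apart in that mouse. With GC and length trends removed, the median of the GC-rich members moved from -0.11 to -0.03, while Sema3a was at -0.74 (SE 0.09, edgeR adjusted p = 0.00331). The KO-to-WT difference of Sema7a was -0.95 in the female pair and -0.35 in the males on the log2 scale (edgeR adjusted p = 0.0844 for the sex-by-genotype term).

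**Figure D5:**
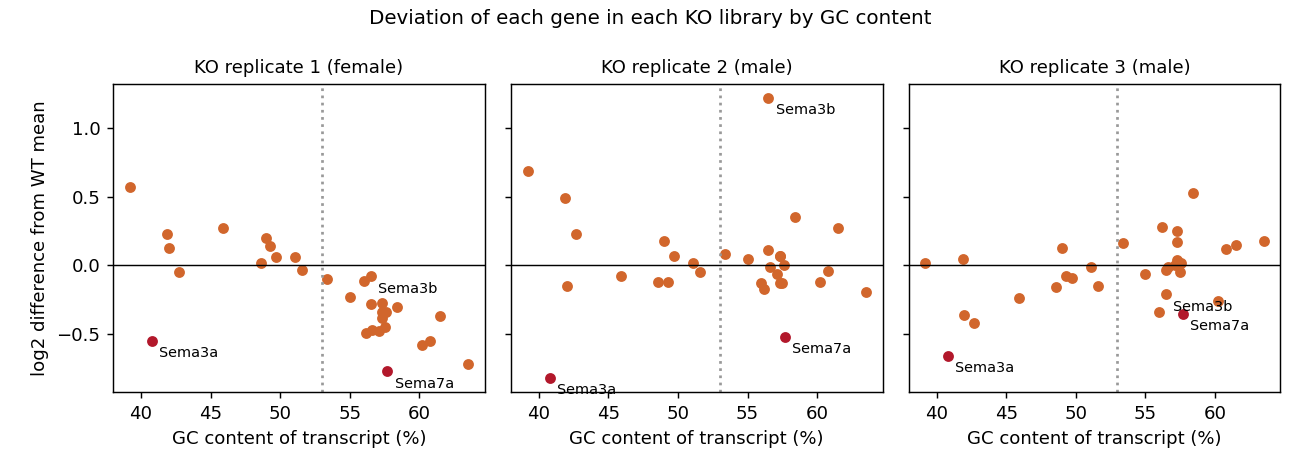
Log2 difference of each of the 31 genes from its WT mean (vertical) against the GC content of its longest transcript (horizontal), 1 panel per KO library, with a dotted line at 53% GC. In KO replicate 1 the genes right of the line all lie below 0, with a median of -0.37, and Sema3a lies below 0 on the left in all 3 panels.

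Co-receptors and signalling partners of the family were measured as a list of 49 tested gene models, Mical3 being 2 of them. None passed over all genes tested in edgeR, and 5 had an unadjusted p under 0.05, a share near the 8.96% of all genes tested. DESeq2 called 3, where it called 1.65% of all genes it tested, and the fit with GC and length offsets also 3, where it called 1.6%. The median log2 fold change was -0.02. Itgb1, the integrin that Sema7A binds, averaged 71.5 ± 5.11 in WT and 71.3 ± 6.25 in KO in CPM (SD, n = 3 each). Trem2 and Tyrobp, a microglial receptor and its adaptor that can form a complex with plexin A1, were at 0.94 (SE 0.19, edgeR adjusted p = 0.117) and 0.88 (SE 0.15, 0.0663), and both passed in DESeq2 (adjusted p = 5.99e-04 and 4.00e-05). The 10 microglia markers had summed levels of 199 to 243 CPM in WT and 295 to 348 CPM in KO. Blood cell markers had log2 fold changes above 0 in 7 of 7 tested genes, with a median log2 fold change of 0.74 and none past the threshold in edgeR. Of these 7, 5 had an unadjusted edgeR p under 0.05, and DESeq2 and the fit with offsets each called 1. The summed levels of blood cell markers, 72.3 to 89.9 CPM in WT and 78.5 to 158 CPM in KO, overlapped. The part of either cell type in the Trem2 and Tyrobp values was not tested. Plxna1 itself was at 0.02, as given with the receptors. Ptk2b, a focal adhesion kinase relative, was at -0.63 (SE 0.12, edgeR adjusted p = 0.0852). These 4 genes did not pass over all genes in edgeR and were chosen after their values were seen.

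Other guidance families were the slits, netrins and ephrins with their receptors, and the Rgm, Flrt and Draxin genes. They included 0 of 43 tested genes past the threshold in edgeR or DESeq2. An unadjusted edgeR p under 0.05 was found for 4 (8.96% of all genes tested), and the median log2 fold change was -0.07. Of 14 perineuronal net genes, to whose matrix the Sema3A protein binds, 0 passed in edgeR and 1 had an unadjusted p under 0.05, with a median of -0.07. That gene was Hapln4, a link protein of the nets (-0.31, SE 0.07, edgeR adjusted p = 0.156), which DESeq2 called (adjusted p = 0.0178), and it was likewise chosen after its value was seen. All genes tested had a median of 0.00.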

How the data were processed

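Counts are the raw values that the authors deposited in 1 table, a whole number for each gene in each sample. Gene model lengths, as deposited, served for CPM per kb. STAR and mm10 are named in the submitters' processing notes. How reads were counted, with which strand setting and annotation, is not given in the sources used here, so antisense and overlapping genes cannot be told apart. RNA was extracted with a column kit, per the labels' protocols. Of the members 13 overlap another gene of the table and 1 a gene with over 10% of its counts. No library was a copy of another of its group (chi-square of pairs over its degrees of freedom 7.45 to 31.14). With totals of 25245778 to 31135185 counts, depth limits low genes and the spread between mice (biological coefficient of variation 11.2%) abundant ones.

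The analysis used edgeR 4.0.16 in R 4.3.3: filterByExpr (minimum count 10, minimum total 15), TMM, a model of sex and genotype (residual degrees of freedom 3), robust legacy glmQLFit, its F test (two-sided) and Benjamini-Hochberg adjustment over 16934 genes at 0.05. The SE is the absolute log2 fold change over the square root of F, and 95% intervals use the t distribution with the total degrees of freedom. Per-library differences are on log2 CPM (prior count 2). Alternatives were DESeq2 1.42.0, limma-voom (limma 3.58.1), RLE factors, no filter, a filter at a mean of 1 CPM, males only, no sex term, edgeR's newer quasi-likelihood version, each library left out, a threshold of 0.10, offsets for GC content (longest GENCODE M21 transcript, known for 99.0% of tested genes) and length (loess, span 0.5), and, added after seeing the data, a choroid plexus score in place of sex. Promoter sequences are RefSeq's. The fit was tested on simulated counts of 16725 genes of this comparison, where it called 77% of the changes of 1.5-fold and 93% of those of 2-fold, and 5.56% of its calls were false. Changes were placed only in genes with a mean count of at least 50. The simulated spread followed the level of a gene alone, and no library held a GC trend. These shares therefore describe a simpler setting than the data.

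The members, gene lists, tests and alternatives were chosen with earlier results of these data known. Named genes were all members, Tmem106b, 7 anchors of cell types, up to 4 passing genes per list and genes overlapping a member, and 1 passing gene of a list is not reported here. Outside this rule, Itgb1, Trem2, Tyrobp, Ptk2b and Hapln4 were named after their values were seen. Marker lists whose levels do not stand beside a member are not reported here. Replicate numbers follow the order of deposit and pair nothing. WT replicate 1 and KO replicates 1 and 2 share a code in their titles. The labels explain neither this code nor whether mice shared a litter or cage, and a term for it beside sex and genotype would leave no residual degrees of freedom.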

Additional observations from a re-analysis of the deposited data

How the results depend on the processing

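The number of changed genes, 48, was 75 with RLE size factors, 199 with no filter, 76 with a mean of at least 1 CPM, 225 in DESeq2, 111 in males only, 271 with GC content and length offsets and 109 at a threshold of 0.10, and it ranged from 1 to 156 when 1 library was left out. Among the members the count of 1 was 2 in DESeq2 and 2 with the offsets, Sema7a being the added gene, and ranged from 0 (without WT replicate 2, WT replicate 3 or KO replicate 2) to 2 (without KO replicate 3). Among signalling partners, other guidance genes and perineuronal net genes, 0 at first, it was 1 with RLE size factors, with the filter at 1 CPM and with no sex term, 2 in males only, with the choroid plexus score and at a threshold of 0.10, 3 with no filter and with the offsets, and 4 in DESeq2 (Hapln4, Ptk2b, Trem2 and Tyrobp), with a range of 0 to 3 when 1 library was left out. The cause was not tested. Without a replicate fewer samples enter the fit. Under the sex term, leaving out either female in effect compares the males only, so those fits and the males-only fit are not separate checks. No paired analysis was possible because the labels give no shared replicate numbers. The 3 libraries that share a title code had Sema3a levels of 31.0 CPM in WT replicate 1 and 19.9 and 16.4 CPM in KO replicates 1 and 2.

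Of 496 fold changes of members in the alternatives, 46 changed sign, in 17 members, none of them called in any fit. In males only Sema3b was at -0.14, Sema4a at 0.03, Sema4b at 0.02, Sema4f at 0.12, Sema6b at 0.07, Plxnb1 at 0.01, Plxnb2 at 0.05 and Nrp2 at -0.03. With the choroid plexus score Sema3b was at -0.13 and Sema5a at 0.03, and with the offsets Sema4a was at 0.0044 and Plxna2 at -0.0017. With 1 library left out, the range was -0.14 to 0.80 for Sema3b, -0.24 to 0.14 for Sema3c, -0.24 to 0.009 for Sema3g, -0.13 to 0.04 for Sema4a, -0.24 to 0.02 for Sema4b, -0.02 to 0.22 for Sema4d, -0.23 to 0.13 for Sema4f, -0.10 to 0.07 for Sema5a, -0.42 to 0.08 for Sema6b, -0.06 to 0.18 for Sema6c, -0.05 to 0.16 for Plxna1, -0.03 to 0.08 for Plxna2, -0.17 to 0.02 for Plxnb1, -0.14 to 0.06 for Plxnb2, -0.15 to 0.03 for Plxnc1, -0.33 to 0.0018 for Plxnd1 and -0.03 to 0.07 for Nrp2.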

Other observations

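In a fit with a sex-by-genotype term, 0 of 16934 genes passed in edgeR, while 3189 genes and 12 of the 31 members had an unadjusted p under 0.05. No other tool was run on this term, and each genotype has 1 female, so the term compares single mice with pairs. The lowest adjusted p-values among members were those of Sema7a (female difference -0.95 and male difference -0.35 on the log2 scale, edgeR adjusted p = 0.0844), Plxnb2 (-0.40 and 0.06, 0.0896) and Sema6b (-0.88 and 0.07, 0.0969). Their transcripts hold 57.7%, 57.3% and 63.5% GC. In KO replicate 1, the KO female, 4447 of 5429 genes above 53% GC lay below their WT mean, and the part of base composition in these values was not tested.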
